A study of Mus musculus with 2 samples.

Results

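The integrin and laminin subunits were examined in the fetal mouse esophagus. Members were all probe sets whose single gene symbol names an integrin alpha or beta chain or a laminin alpha, beta or gamma chain. The rule found 73 of the 45101 probe sets, which cover 34 of 18193 named genes, 24 of them integrins and 10 laminins. The array carrying Myf5-/-:MyoD-/- esophagus, labelled BALB/c Myf5:Myod null, was compared with the array carrying wild-type BALB/c esophagus, both from E18.5 embryos. The number of embryos per sample was not given in the sources used here. There was 1 array per genotype, so every difference compares 2 RNA samples, carries no test and has no replicate error. The series title refers to striated muscle taking the place of smooth muscle while the esophagus develops.

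Integrins are cell surface receptors made of 1 alpha and 1 beta chain. They bind matrix proteins outside the cell and connect to actin or keratin filaments inside it. Laminins are secreted trimers of 1 alpha, 1 beta and 1 gamma chain that assemble into basement membranes, the sheets under epithelia and around muscle fibers, nerves and vessels. Striated muscle is known for the alpha7 beta1 integrin and the laminin alpha2 chain, smooth muscle for the integrin alpha8 and alpha1 chains, and basal squamous epithelium for the alpha6 beta4 integrin of hemidesmosomes and for laminins with alpha3 and alpha5 chains.

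Values are MAS5 signals, 1 per probe set, in arbitrary units on a scale common to both arrays. Signals below 489, the median over both arrays, were raised to that low-signal limit. Log2 ratios are null-labelled over wild type. Genes under the limit on both arrays were treated as not measured. A gene below it on 1 array has only a bound, written "at least". Each gene is represented by its brightest probe set unless others are given. The log2 ratios of probe sets of 1 gene had a pooled SD of 0.56 over 5455 genes, which covers differences between probe sets only.

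Myf5 read 496 on the null-labelled and 4072 on the wild-type array, 8.22-fold lower. Myod1 read 1698 and 2001 at its brighter probe set on the null-labelled and wild-type arrays. The position of either probe set relative to the deleted sequence is not stated, so the mutant array is called null-labelled. All 7 striated muscle markers (such as Acta1, Tnnc2 and Myh3) were at least 2-fold lower, against 5.36% of all measured genes. Their summed signals were 3056 on the null-labelled and 307217 on the wild-type array. None of these markers is listed at 0, but 3 of the 7 were below the low-signal limit on the null-labelled array. The 6 smooth muscle markers summed to 299329 and 186635 on the null-labelled and wild-type arrays, and the 7 measured squamous epithelium markers to 449409 and 382412. Each sum was mostly 1 gene. Acta2 read 242976 on the null-labelled and 131127 on the wild-type array, and 2 of the 6 smooth muscle markers had a ratio below 0. Krt4 read 259124 and 173385 on the null-labelled and wild-type arrays, and 5 of the 7 epithelium markers had a ratio below 0. The 3' over 5' control signal, a sign of RNA integrity, was 14.2 on the null-labelled and 12.6 on the wild-type array for beta-actin, and 6.96 on the null-labelled and 10.5 on the wild-type array for Gapdh. Both controls thus read far higher at the 3' end on both arrays, and they differed between the arrays in opposite directions. The effect of this 3' excess on member probe sets was not tested. The share of probe sets at or over the limit was 55.4% on the null-labelled and 44.6% on the wild-type array, and all measured genes together had a median log2 ratio of 0.086, which moved to -0.021 with loess.

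The 250 bases before the transcription start are shown for Lama5, Lamb3, Lamb1 and Lama2, the laminin genes with the lowest ratios among those in the RefSeq promoter table (GRCm38.p6), because laminin chains held the lowest ratios of the family. Capitals mark the E-box CANNTG, the motif that Myf5, Myod1 and many other basic helix-loop-helix factors can bind. It reads the same on both strands and includes the form CAGCTG. The stretches are chr2:180225860-180226109 (minus strand), chr1:193301744-193301993 (plus strand, the first of 2 listed starts), chr12:31265043-31265292 (plus strand) and chr10:27616943-27617192 (minus strand).
Lama5: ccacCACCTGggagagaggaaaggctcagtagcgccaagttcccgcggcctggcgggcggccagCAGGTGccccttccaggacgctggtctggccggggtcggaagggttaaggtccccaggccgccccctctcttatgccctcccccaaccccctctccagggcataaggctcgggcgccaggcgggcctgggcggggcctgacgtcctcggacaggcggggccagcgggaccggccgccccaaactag
Lamb3: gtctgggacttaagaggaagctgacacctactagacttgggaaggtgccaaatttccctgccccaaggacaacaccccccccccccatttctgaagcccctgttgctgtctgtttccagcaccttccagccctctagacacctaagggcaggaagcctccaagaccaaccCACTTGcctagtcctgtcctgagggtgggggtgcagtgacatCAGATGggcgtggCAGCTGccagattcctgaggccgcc
Lamb1: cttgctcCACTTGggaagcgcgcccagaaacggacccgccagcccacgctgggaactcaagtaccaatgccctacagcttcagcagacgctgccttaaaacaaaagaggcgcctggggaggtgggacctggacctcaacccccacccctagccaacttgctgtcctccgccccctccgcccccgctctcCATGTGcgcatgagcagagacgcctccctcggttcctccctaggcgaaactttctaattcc
Lama2: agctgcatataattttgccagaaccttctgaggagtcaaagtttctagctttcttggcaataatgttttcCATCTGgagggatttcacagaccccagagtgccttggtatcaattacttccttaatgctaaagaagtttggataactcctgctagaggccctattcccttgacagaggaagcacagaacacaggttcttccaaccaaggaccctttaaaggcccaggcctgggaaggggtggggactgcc
These stretches hold 2, 3, 2 and 1 E-boxes in the order shown. Of all 32851 RefSeq promoters of this length, 66.2% hold at least 1, so most promoters share it. The CAGCTG form occurs only in the Lamb3 stretch of these 4, against 13.0% of all promoters. A match describes the letters and is not evidence of binding.

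Of the 34 genes, 29 were measured. Laminin genes lay mostly below 0 and integrin genes mostly above it. Of 9 measured laminin genes, 7 had a ratio below 0, and their median was -0.76 (log2). Of 20 measured integrin genes, 17 had a ratio above 0, with a median of 0.46. These 17 include Itga10, Itga5, Itgax and Itgb6, which were measured through the null-labelled array alone and so could only lie above 0, and Itgb5, whose probe sets disagree. Without these bounds, 13 of 16 integrin genes lay above 0 (median 0.46), and 12 of 15 without Itgb5 as well, against 51.0% of all genes measured on both arrays. With quantile normalization 15 of 20 lay above 0 and with loess 14 of 19, counts that again include bounds and Itgb5. Of all measured genes, 48.4% lay below 0 with quantile normalization and 51.4% with loess. Over all 13315 measured genes, 43.4% had a ratio below 0 and 56.6% a ratio above 0. At least 2-fold lower were 3 laminin genes and 0 integrin genes, against 5.36% of all measured genes, and at least 2-fold higher were 3 integrin genes and 0 laminin genes, against 6.01%. Counts this small on 2 arrays describe these RNA samples only. In whole tissue, fewer cells of a type and less RNA per cell cannot be told apart.

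**Figure D1:**
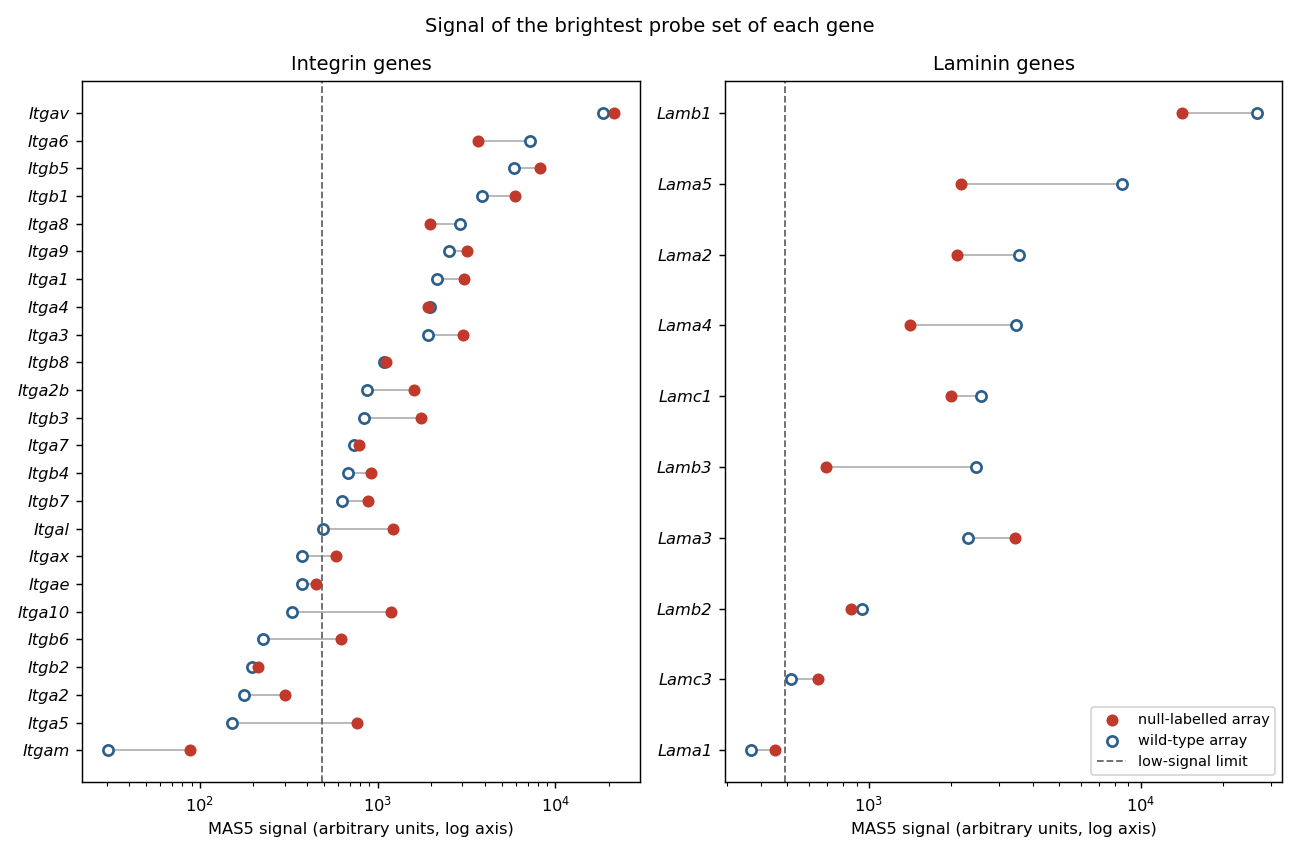
Signal of the brightest probe set of each integrin gene (left) and laminin gene (right) on a log axis, with the null-labelled array as filled red points, the wild-type array as open blue points and the low-signal limit of 489 as a dashed line. Of the 9 measured laminin genes, 7 have the red point left of the blue one, while 13 of the 16 integrin genes above the limit on both arrays have it on the right. One of the 13 is Itgb5, whose other probe sets disagree.

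The split was also present among bright genes. With a mean signal of at least 2000, a limit chosen after the values were seen, 5 of 6 laminin genes and 2 of 8 integrin genes had a ratio below 0, against 55.5% of the 5755 genes this bright. The medians were -0.84 for laminins and 0.41 for integrins, against -0.068 for all genes of this brightness. The laminin median was negative and the integrin median positive in each of the 8 alternative settings.

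Among laminin alpha chains, which carry the main receptor-binding end of the trimer, Lama5 had the lowest ratio, although Lamb3 was lower among member genes with quantile normalization (-2.04 for Lamb3 and -1.89 for Lama5) and with loess (-1.97 for Lamb3 and -1.90 for Lama5). Lama5, the alpha chain of most epithelial and vascular basement membranes, read 2171 on the null-labelled array and 8547 on the wild-type array, 3.94-fold lower. Its second measured probe set read 969 and 1041 on the null-labelled and wild-type arrays, a log2 ratio of -0.10, so its probe sets disagreed on the size. Another was below the limit on both arrays. Lama4, the alpha chain of vessel walls and other mesenchymal basement membranes, read 1413 on the null-labelled and 3472 on the wild-type array, 2.46-fold lower. Its second probe set, close to the limit, read 461 and 516 on the null-labelled and wild-type arrays, and the median of the pair was short of 2-fold. Kdr, Cdh5, Tek and Emcn, the measured endothelial markers, had a median ratio of 0.22 (log2), with 1 of 4 below 0. Emcn was below the limit on the wild-type array and so could only lie above 0. Kdr, Cdh5 and Tek had log2 ratios of -0.61, 0.37 and 0.069. The list with Pecam1 summed to 4989 on the null-labelled and 5223 on the wild-type array, none at 0. The part of other cell types in the laminin ratios was not tested.

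Lama2, the chain of the laminin around striated muscle fibers, whose loss causes a congenital muscular dystrophy, read 2113 on the null-labelled and 3571 on the wild-type array at its only probe set. That is 1.69-fold lower and short of the 2-fold size. Lama3, the alpha chain of the epithelial anchoring laminin, went the other way, with 3435 on the null-labelled and 2312 on the wild-type array. Lama1, a chain of early embryonic basement membranes, was not measured, with 452 on the null-labelled and 366 on the wild-type array.

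The beta chains were all below 0. Lamb3, the partner of Lama3 in the epithelial anchoring laminin, read 692 on the null-labelled array and 2472 on the wild-type array, 3.57-fold lower at its only probe set, and short of 2-fold with the higher limit at the 75th percentile. Lamb1, the common beta chain, read 14181 on the null-labelled and 26763 on the wild-type array, 1.89-fold lower. Its second measured probe set read 1513 and 2442 on the null-labelled and wild-type arrays, 1.61-fold lower, so both pointed the same way. Lamb2, the beta chain of the neuromuscular synapse and of vessel walls, read 862 and 938 on the null-labelled and wild-type arrays, a small difference next to the spread between probe sets.

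Lamc1, the gamma chain shared by most laminins, read 1999 on the null-labelled and 2586 on the wild-type array, 1.29-fold lower, and its second probe set was 1.63-fold lower. Lamc3, a gamma chain of few tissues, read 651 and 514 on the null-labelled and wild-type arrays, a log2 ratio of 0.34 that became -0.16 with quantile normalization and -0.18 with loess. Taken by trimer, the 3 chains of the alpha5 beta1 gamma1 laminin had log2 ratios of -1.98, -0.92 and -0.37 for Lama5, Lamb1 and Lamc1. The alpha2 beta1 gamma1 laminin of muscle shares Lamb1 and Lamc1 and adds Lama2, at -0.76. Lama3, at 0.57, and Lamb3, at -1.84, lay on different sides of 0.

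**Figure D2:**
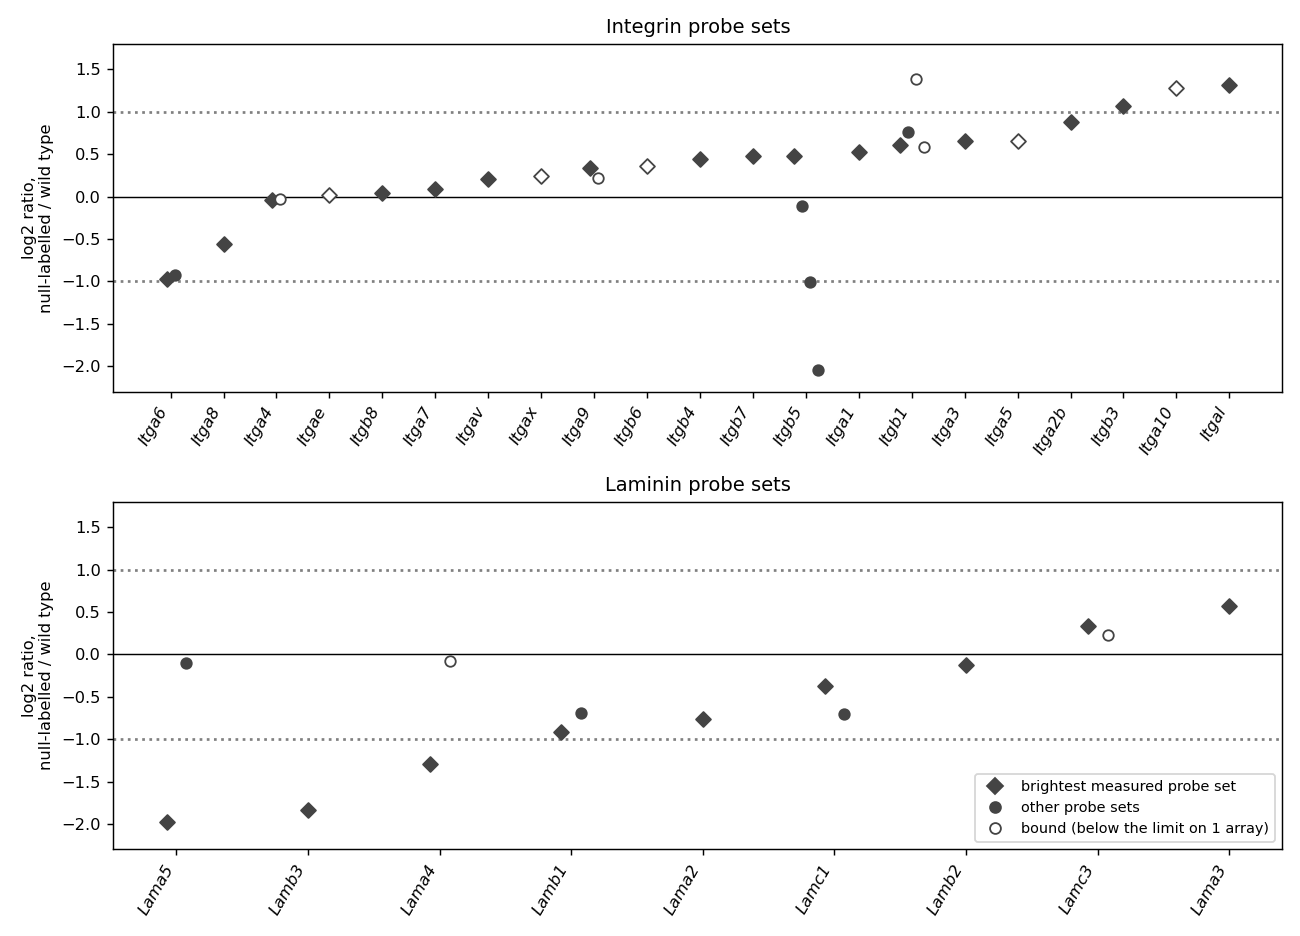
Log2 ratio (null-labelled over wild type) for each measured probe set of integrin genes (top) and laminin genes (bottom), with diamonds for the brightest measured probe set of a gene, circles for the others, open symbols for bounds and dotted lines at 2-fold. The 4 Itgb5 probe sets spread from -2.05 to 0.48, and the Lama5 pair from -1.98 to -0.10, whereas the Itga6 pair lies together at -0.98 and -0.93.

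Among integrin alpha chains that bind laminin, Itga6 was the lowest. It encodes the alpha6 chain of hemidesmosomes and of the alpha6 beta1 laminin receptor. It read 3666 on the null-labelled and 7213 on the wild-type array, 1.97-fold lower and just short of the 2-fold size. Its second probe set read 3614 and 6884 on the null-labelled and wild-type arrays, 1.90-fold lower, so both gave nearly the same ratio. Itga3, the other alpha chain of the basal epithelial laminin receptors, read 3024 on the null-labelled and 1921 on the wild-type array, 1.57-fold higher. Its other probe sets were below the limit on both arrays.

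Itga7, the laminin-binding alpha chain of striated muscle, also made by smooth muscle and some neurons, had nearly the same signal on both arrays. It read 788 on the null-labelled and 738 on the wild-type array, 1.07-fold higher. Its only probe set lies not far above the limit, and the log2 ratio was -0.28 with quantile normalization and -0.29 with loess, on the other side of 0. Together the striated muscle subunits Itga7, Lama2 and Lamb2 had a median log2 ratio of -0.12, with 0 of 3 at least 2-fold apart. Over the same arrays the median of the 7 striated muscle markers was -6.22.

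Smooth muscle subunits went both ways. Itga1, a collagen and laminin receptor chain of smooth muscle and other mesenchyme, read 3077 on the null-labelled and 2145 on the wild-type array, 1.43-fold higher. Itga8, the receptor chain for nephronectin and fibronectin, read 1971 on the null-labelled and 2903 on the wild-type array, 1.47-fold lower. Itga5, the fibronectin receptor chain, read 771 on the null-labelled and 152 on the wild-type array, at least 1.58-fold higher. Its other 3 probe sets were below the limit on both arrays. The median of these 3 genes was 0.52 and that of the 6 smooth muscle markers 0.50, against 0.086 for all measured genes. With the limit at a signal of 1399, the 75th percentile, Itga1 and Itga8 alone were measured and their median was -0.019.

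Epithelial subunits also lay on both sides of 0. Of 7 measured genes, Lama5 and Lamb3 were at least 2-fold lower and 0 were 2-fold higher, against 5.36% and 6.01% of all measured genes. The median log2 ratio was 0.36, which is the bound of Itgb6 itself. It was -0.27 over the 6 genes measured on both arrays, with 3 of 6 below 0, and -0.82 over the 5 genes measured at that higher limit. Itgb4, the partner of Itga6 in hemidesmosomes, read 924 on the null-labelled and 679 on the wild-type array, 1.36-fold higher. Its log2 ratio of 0.44 became 0.088 with quantile normalization and 0.077 with loess. Itgb6, a chain of the epithelial receptor that activates TGF-beta, read 626 on the null-labelled and 228 on the wild-type array, at least 1.28-fold higher. Itga2, a collagen receptor chain, was not measured. The squamous epithelium markers had a median of -0.17, with 5 of 7 below 0 and only Krt14 at least 2-fold apart, at 2.46-fold lower.

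**Figure D3:**
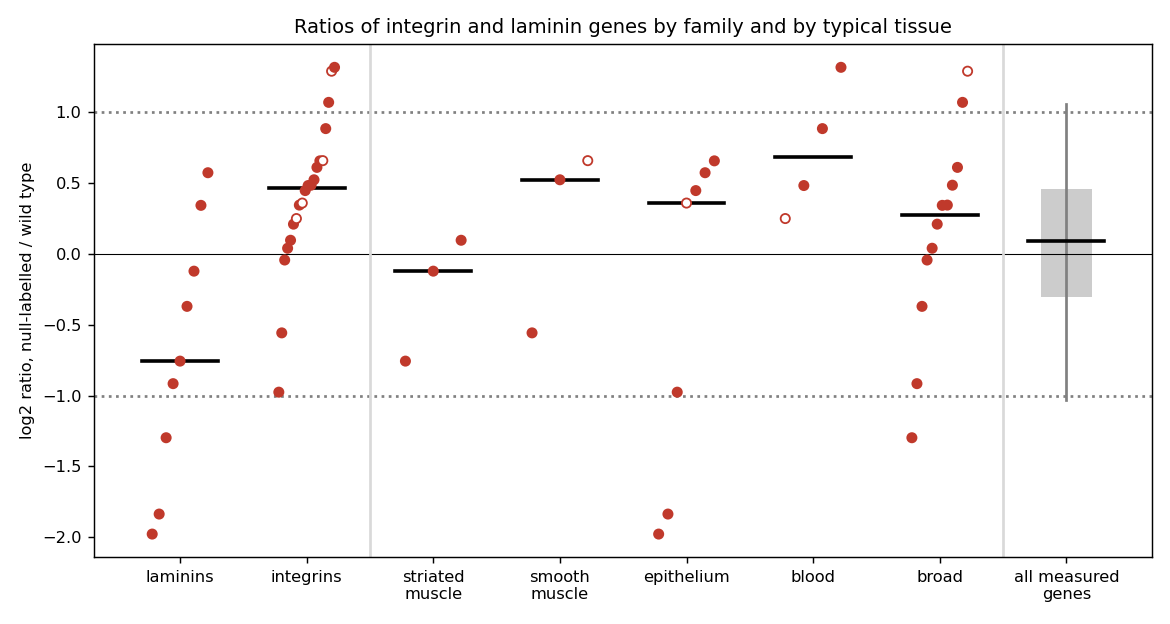
Log2 ratio of each measured integrin or laminin gene (points, open for bounds) by family and by the tissue it is typical of, with the median as a black bar. At the right, all measured genes are shown by their median, a box from the 25th to the 75th percentile and a line from the 5th to the 95th. Laminins have a median of -0.76 and integrins of 0.46, while the tissue groups hold genes on both sides of 0 in all but the blood group.

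The common chains were high or level. Itgb1, the beta chain of most matrix receptors, read 5884 on the null-labelled and 3859 on the wild-type array, 1.52-fold higher. Its second brightest probe set read 4163 and 2463 on the null-labelled and wild-type arrays, and all 4 measured probe sets were above 0. Those with bounds of 1.39 and 0.59 were below the limit on the wild-type array and so could only lie above 0. Itgav, the alpha chain of receptors for vitronectin and fibronectin, read 21400 on the null-labelled and 18525 on the wild-type array, 1.16-fold higher. Itga9, a receptor chain for tenascin C, was 1.27-fold higher and Itgb8, a chain of another TGF-beta activating receptor, 1.03-fold higher, with a log2 ratio of -0.14 after quantile normalization and -0.17 after loess. Itga4, a chain of leukocytes, neural crest and mesenchyme, was 1.03-fold lower.

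Itgb5, a vitronectin receptor beta chain, has no settled direction. Its brightest probe set read 8140 on the null-labelled and 5825 on the wild-type array, and the next 3819 and 4126. Both have identifiers that mark probes shared with other sequences. The other pair read 1772 and 708 on the null-labelled array, against 3553 and 2925 on the wild-type array, which is 2.01-fold and 4.13-fold lower. With the median of the 4 probe sets the log2 ratio was -0.56, and without the shared kind it was that of the third brightest, 2.01-fold lower.

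The genes at least 2-fold higher were Itgal, Itga10 and Itgb3. Itgal, the alpha chain of the leukocyte receptor LFA-1, read 1219 on the null-labelled and 490 on the wild-type array, 2.49-fold higher, with its second probe set below the limit on both arrays. Its wild-type signal is next to the limit. Neither Itgal nor Itgb3 reached 2-fold with quantile normalization or loess. Itga10, a collagen receptor chain of cartilage and other connective tissue, read 1193 on the null-labelled and 331 on the wild-type array, at least 2.44-fold higher. Itgb3, the beta chain of platelet, vascular and osteoclast receptors, read 1754 on the null-labelled and 837 on the wild-type array, 2.09-fold higher.

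Among the other blood cell chains, Itga2b, the platelet partner of Itgb3, was 1.84-fold higher and Itgb7, a chain of mucosal lymphocytes, 1.40-fold higher. Itgax, a dendritic cell chain, was at least 1.19-fold higher. The Itgb7 log2 ratio of 0.48 became 0.096 with quantile normalization and 0.084 with loess. Itgam and Itgb2, chains of the macrophage and neutrophil receptor, and Itgae, the other partner of Itgb7, were not measured at their brightest probe sets. All 4 measured genes of this group were above 0, with a median of 0.68, against 56.6% of all measured genes. Itgax, a bound, could only lie above 0, and the other 3 were measured on both arrays. The 6 white blood cell markers summed to 22612 on the null-labelled and 18937 on the wild-type array. Of the 4 measured, 2 were at least 2-fold higher and 1 lower, against 6.01% and 5.36% of all measured genes. The other 2 were not measured. Ptprc, the general leukocyte surface marker, read 5010.0 on the null-labelled and 585 on the wild-type array, 8.57-fold higher. Its other probe set was below the limit on both arrays. Lyz2 was 2.20-fold higher and C1qb 2.06-fold lower. Csf1r, the brightest of the list, read 14108 on the null-labelled and 14020 on the wild-type array. The 4 platelet markers summed to 12823 and 14396 on the null-labelled and wild-type arrays, with Ppbp 2.85-fold lower. None of either list is at 0. Their part in these ratios was not tested.

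Integrin partners inside the cell included a muscle protein with a large difference. Itgb1bp2, which encodes melusin, a striated muscle protein that binds the tail of the beta1 chain, read 279 on the null-labelled and 4649 on the wild-type array, at least 9.51-fold lower. Ilk, the integrin-linked pseudokinase, read 3343 on the null-labelled and 6813 on the wild-type array, 2.04-fold lower. These were the 2 of 16 measured partners at least 2-fold lower, and 0 were 2-fold higher, against 5.36% and 6.01% of all measured genes, with a median of 0.077. The brightest of them, the actin-linking genes Vcl and Actn1, were 1.58-fold and 1.28-fold higher, and the kindlin gene Fermt2 was 1.11-fold lower by the brightest of its probe sets, while its others read 0.32 and at least 1.68 on the log2 scale. The Ilk-binding genes Parva, Lims1 and Lims2 had log2 ratios between 0.078 and 0.22 at their brightest probe sets. A dimmer Parva probe set had a bound of -0.31 and a dimmer Lims1 one a bound of 0.96.

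Of 15 measured genes for other basement membrane proteins, 10 had a ratio below 0, with a median of -0.38, against 43.4% of all measured genes and 55.5% of those with a mean signal of at least 2000. At least 2-fold apart were 1 lower and 1 higher gene, against 5.36% and 6.01% of all measured genes. Col15a1, a collagen of muscle and vessel basement membranes, read 1309 on the null-labelled and 3396 on the wild-type array, 2.60-fold lower. Col4a6, a collagen chain of smooth muscle and epithelial basement membranes, read 1166 on the null-labelled and 94.0 on the wild-type array, at least 2.38-fold higher. Its second probe set read 1136 and 36.5 on the null-labelled and wild-type arrays. The neighbouring chain gene Col4a5, which pairs with it, was 1.72-fold higher. The most widespread chain, Col4a1, was 1.42-fold lower at the brightest of its probe sets and 0.14 on the log2 scale at its second, and the laminin receptor Dag1 was 1.30-fold lower.

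Of 10 measured genes for other integrin ligands, 3 were at least 2-fold lower and 0 higher, against 5.36% and 6.01% of all measured genes, with a median of -0.28. Emilin1, an elastic fiber protein bound by alpha4 and alpha9 integrins, read 479 on the null-labelled and 3494 on the wild-type array, at least 7.14-fold lower, with a second probe set at least 1.26-fold lower. Postn, a matricellular ligand of alpha v integrins, was 2.31-fold lower. Npnt, the nephronectin ligand of the alpha8 chain, was 2.05-fold lower at the brightest and 1.70-fold lower at its next probe set, while another had a bound of 0.86 on the log2 scale. The receptor chain Itga8 lay at -0.56. The fibronectin gene Fn1 was 1.17-fold lower by the brighter of its probe sets and higher by at least 0.51 on the log2 scale by the other.

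**Figure D4:**
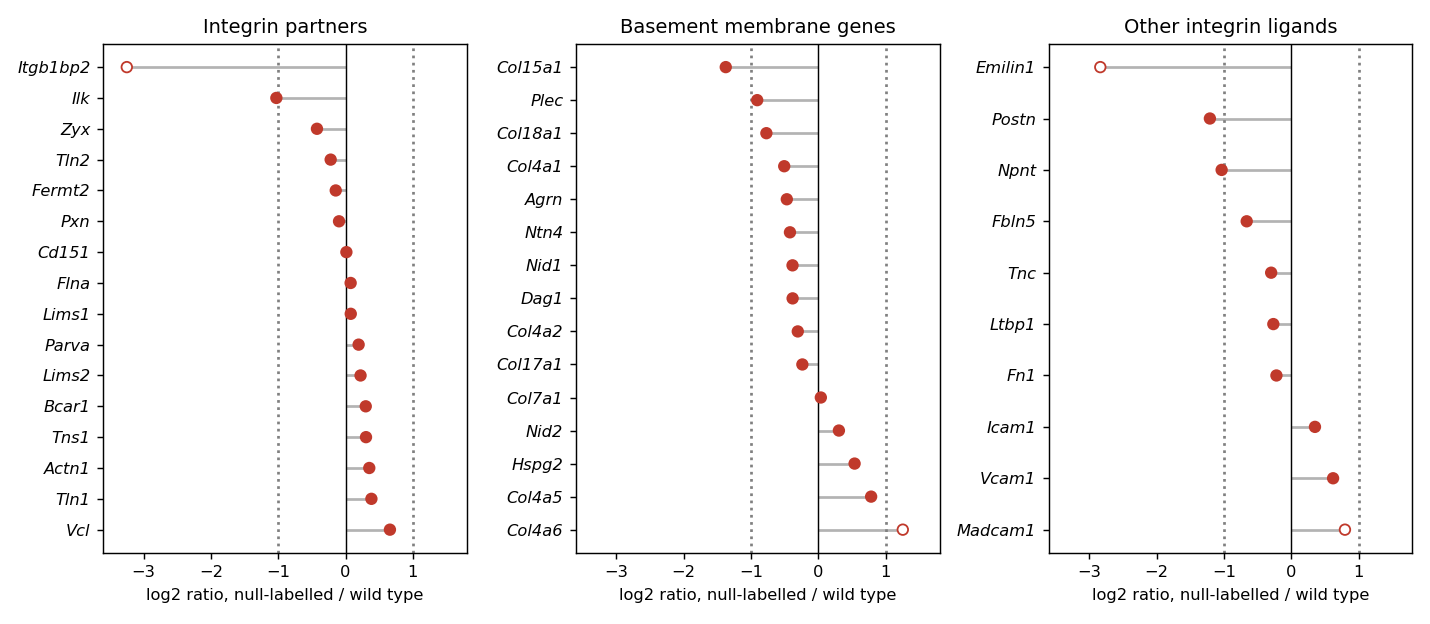
Log2 ratio (null-labelled over wild type) for measured integrin partners (left), other basement membrane genes (middle) and other integrin ligands (right), with open points for bounds and dotted lines at 2-fold. Itgb1bp2 at -3.25, Emilin1 at -2.84 and Col4a6 at 1.25 are bounds, so their order is not set, and Col4a6 is the one gene past 2-fold on the higher side.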

How the data were processed

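Total RNA from E18.5 esophagus was labelled from 6 µg and hybridized to 1 Affymetrix array per genotype, per the labels' protocols. The deposited intensities are linear signals that the authors made with MAS5, per the submitters' processing notes; its version and parameters were not given in the sources used here. Both arrays have a mean of 1500.01 after trimming 2% at each end. There are no detection calls.

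Probe sets were named through the platform annotation held by GEO, possibly outdated; all 34 member symbols matched RefSeq (GRCm38.p6) by Entrez ID. The 64 control probe sets were left out, and those with several symbols or none entered no gene count. The low-signal limit is the median signal over both arrays, controls aside, and stands in for detection calls. Genes were counted at 2-fold by size. With 1 array per genotype no test was possible, and the number of arrays limits precision. The low-signal limit, the 2-fold rule and the normalization alternatives follow earlier work on these data; the members and lists were chosen with earlier results of these data known. Every member could be named. Of the partner lists, those 2-fold apart, the brightest 3 and Parva, Lims1 and Lims2 were named. Parva, Lims1, Lims2, Acta2, Krt4, Krt14, Ppbp and the named white blood cell markers were picked with their values known. The calculation was tested on simulated data. Python 3.11.15, numpy 2.4.6, pandas 2.3.3, statsmodels 0.14.6 and matplotlib 3.10.9 were used.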

Additional observations from a re-analysis of the deposited data

How the results depend on the processing

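Of 29 measured members, 3 were at least 2-fold lower and 3 higher, against 5.36% and 6.01% of all measured genes. Ratios centred on the median gene gave 5 lower, against 6.24% of all genes, with Itga6 and Lamb1 past the size. Higher members numbered 1 of 29 with quantile normalization and 1 of 28 with loess, against 4.16% and 3.43% of all genes. When the limit was the 25th percentile they numbered 5 of 33, against 16.6%. When it was the 75th they numbered 0 of 18, against 1.85%. With no limit and a pseudocount of 16 they numbered 6 of 34, against 19.5% of all genes. Each of these changes in the higher count went the same way as the share of all genes. At 4-fold, with the reported scaling and limit, 0 members were lower and 0 higher, while Lama5 passed it when centred (-2.06), Lamb3 with quantile normalization (-2.04) and Itga5 at the 25th percentile (2.20) and with no limit (2.23). The median of all members, 0.34, was 0.088 with quantile normalization, 0.069 with loess, 0.077 at the 75th percentile, and 0.23 both with the median of probe sets and without probe sets ending in _x_at or _s_at. The epithelial median was 0.088 with quantile normalization, 0.061 with loess and -0.82 at the 75th percentile (5 genes); there the smooth muscle median was -0.019 (2 genes) and the striated one -0.76 (1 gene), with fewer genes measured. The laminin median, -0.76, was -0.56 for a limit at the 25th percentile and without a limit. At the 75th the integrin median was 0.33, with 8 of 11 above 0. Itga2b and Itgb3 were bounds there and could only lie above 0. Among genes of mean signal at least 2000, 6 of 8 were above 0. The laminin and integrin comparisons and their alternatives were chosen after seeing the data. Itgb5 reversed to -1.004 without _x_at and _s_at probe sets; the Itgb5 ratio without them is that of another probe set. Lama5 was at least 2-fold lower in 8 of 8 alternatives and Lama4 and Lamb3 in 7 each. With the median of probe sets, which takes in the second measured ones, Lama5 was -1.04, just past the size, and Lama4 -0.69. Lamb3 was -0.82 at the 75th percentile. Itgal and Itgb3 fell short of 2-fold with quantile normalization (0.97 and 0.92) and loess (0.93 and 0.90). No paired analysis was possible because each genotype has 1 array. Signals near the limit bound what low members can show.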

Other observations

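Between probe sets of the same gene, the pooled SD of the log2 ratio was 0.69 over 24 probe sets of 10 integrin and laminin genes, and 0.52 over 20 probe sets of 9 genes without Itgb5, against 0.56 over 14307 probe sets of 5455 genes. The sign was shared by all measured probe sets in 9 of the 10 genes, the exception being Itgb5. For Itga4, Itga9, Itgb1, Lama4 and Lamc3 these probe sets include bounds. The sign of a bound is fixed by which array is below the limit, so it is no sign of agreement. The widest spreads were those of Itgb5 (2.53 on the log2 scale), Lama5 and Lama4, and the narrowest those of Itga4 and Itga6. The Itga4 spread rests on a bound of -0.033 next to the limit. Of the 73 member probe sets, 29 were below the limit on both arrays and 11 on 1 array, 9 of these on the wild-type array. Below the limit on both arrays were thus 39.7% of member probe sets and 36.5% of all named ones, and 81.8% of the members' bounds and 75.1% of all bounds were below it on the wild-type array.

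Promoters of 22 member genes are in the RefSeq table, with 25 starts. An E-box, CANNTG, was present in the 250 bases before 20 of the 25 starts, against 66.2% of all promoters. All 6 laminin starts and 14 of 19 integrin starts held it. The CAGCTG form was present before 1 of the 6 laminin and 5 of the 19 integrin starts. The CArG box, the motif of serum response factor, was found before 2 of the 25 starts, those of Lama2 and of the second Itgb6 start, against 1.47% of all promoters. These are counts of letters in a fixed window and carry no test.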
